A study of Homo sapiens with 6 samples.

Results

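The 10 genes described here encode ERK pathway feedback inhibitors, as the set is named: DUSP1, DUSP4, DUSP5, DUSP6, IER3, SPRED1, SPRED2, SPRY1, SPRY2 and SPRY4. They were chosen by symbol, with earlier results of these data known. Each was matched to 1 Ensembl gene of the deposited table. Together they make up 10 of the table's 60179 gene features and 10 of the 17449 that passed the filter on low counts. The cells were HEK293T, derived from human embryonic kidney and carrying large T antigen of SV40. All of them were co-transfected with the plasmid pair pShP2419 and pStH1169, which serves to make a light-activatable human TET2, and were kept for 48 h with 0.1 mM of a serine blocked by a dimethoxynitrobenzyl group. The study followed mRNA in 3 groups of 2 libraries, each from 500000 sorted transfected cells: cells without light at 0 h (caged 0 h), cells 4 h after 3 min of 365 nm light (uncaged 4 h), and cells 8 h after the same light (uncaged 8 h). TET2 oxidises 5-methylcytosine in DNA, and the series asked how mRNA stood before its deprotection and at both later times.

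Growth factor receptors switch on RAS, which activates the kinase chain of RAF, MEK and ERK, and active ERK induces genes through transcription factors of the ETS, AP-1 and SRF-bound classes. Several of the induced proteins act back on the chain. Dual-specificity phosphatases (DUSP) remove phosphate from ERK or related kinases, Sprouty (SPRY) proteins act at the level of receptor adaptors and RAF, and SPRED proteins bring the RAS inactivator neurofibromin to the membrane. IER3 is known as an ERK substrate that hinders dephosphorylation of ERK, so its known role differs from that of the other 9.

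Promoter sequence was available for 7 members (RefSeq, GRCh38.p14), in 11 windows that each run from 250 bases before a transcription start to 50 after it. Shown are the stretches before an annotated start of DUSP1, SPRED2 and SPRY1, which were called higher at 8 h in the results. SPRED1, also called higher at 8 h, had too few bases outside exons before its start to be shown. Bases that GENCODE 29 counts as exon were left out. DUSP1 lies at chr5:172771196-172771445 on the minus strand, SPRED2 at chr2:65432638-65432849 on the minus strand and SPRY1 at chr4:123396545-123396794 on the plus strand. All 3 are written 5′ to 3′ on the gene's strand, and capitals mark every match, on either strand, to one of the motifs spelled out in the next paragraph.
DUSP1: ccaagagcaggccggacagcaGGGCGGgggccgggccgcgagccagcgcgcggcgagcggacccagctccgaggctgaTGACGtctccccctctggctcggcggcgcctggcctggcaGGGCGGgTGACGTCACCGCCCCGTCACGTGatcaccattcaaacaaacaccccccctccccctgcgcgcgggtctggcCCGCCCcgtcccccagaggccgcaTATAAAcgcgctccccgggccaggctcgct
SPRED2: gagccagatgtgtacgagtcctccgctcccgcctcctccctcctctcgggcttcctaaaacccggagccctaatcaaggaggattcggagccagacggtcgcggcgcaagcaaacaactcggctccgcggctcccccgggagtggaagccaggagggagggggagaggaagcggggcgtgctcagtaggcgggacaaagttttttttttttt
SPRY1: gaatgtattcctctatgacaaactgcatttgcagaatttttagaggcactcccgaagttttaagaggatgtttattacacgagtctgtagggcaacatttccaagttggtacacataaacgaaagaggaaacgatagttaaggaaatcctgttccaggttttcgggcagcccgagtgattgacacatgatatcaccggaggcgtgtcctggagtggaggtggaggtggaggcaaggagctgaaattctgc

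Within the DUSP1 stretch the capitals hold 1 cyclic AMP response element (CRE, TGACGTCA), 4 copies of its core (TGACG), 1 E-box (CACGTG), 4 GC boxes (GGGCGG) and 1 TATA box (TATAAA). Matches of the core overlap the full element, which holds the core on both strands, and the E-box overlaps a further core. No motif of the set is found in the SPRED2 or SPRY1 stretch as printed. The SPRED2 stretch lacks 38 bases next to its start, and the full window at that start holds 1 core and 1 GC box outside the printed bases. Over the 11 windows, the full CRE was found at 1 of the 7 members, DUSP1, and in 1.85% of the 35116 promoter windows of the whole table. The core was found in 4 of the 11 windows, at 4 members (DUSP1, SPRED2, SPRY2 and SPRY4), and in 24.6% of all windows. The GC box was found in 7 of the 11 windows, at 6 members, and in 45% of all windows. A member counts here if any of its windows matched, while the shares of all windows are per single window. An AP-1 site (TGANTCA) was found at SPRED2 alone, in a window at another start, and in 7.71% of all windows. The ETS motif CCGGAAG was found at SPRY1 alone, likewise at another start, and in 10.3% of all windows. The TATA box was found at DUSP1 and SPRED2 (11.5% of all windows), the E-box at DUSP1 (7.26%) and the SRF CArG box at no member (1.29%). A match is a description of letters in these windows and says nothing about binding.

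The 6 libraries held 17490010 to 20025955 estimated counts. Plasmid sequences took 14.8% to 15.5% of the 4 libraries after light, against 11.5% and 11.8% of the caged libraries. They were left out of library sizes, and with them kept in the fit the same numbers of members passed in each comparison. All 8 genes listed as expressed by HEK293T cells stood above 1 CPM in every library, with sums of 654 to 733 CPM. Of 10 defining genes of other cell types, CD3E was at 0 in all 6 libraries and PTPRC in 5, and 3 (CD14, ALB and COL1A1) stood above 1 CPM in all. Their sums ran from 25.2 to 26.4 CPM after light, against 23.8 and 25.7 CPM in caged cells. Nothing in the labels says that the libraries of a group came from separate cultures, so the p-values capture no more than the spread among these libraries, and that may be technical. As light was never given to cells lacking the enzyme, effects of the light, the wash, the new medium, the passing hours and the freed enzyme cannot be told apart in a comparison with caged cells. The RNA is from bulk cells, so fewer cells with a transcript and less of it per cell cannot be told apart either.

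Levels below are normalised counts after TMM scaling (CPM, the count scaled to the library's gene counts), and changes are log2 fold changes ± SE from edgeR's quasi-likelihood test. Adjusted p-values are Benjamini-Hochberg over all 17449 features, with a threshold of 0.05. At 4 h, 5 members rose over caged cells (DUSP1, DUSP5, SPRED1, SPRED2 and SPRY4) and 0 fell, where 9.72% of all tested features passed in either direction, 6.16% higher and 3.56% lower. DESeq2 called 1 member higher at 4 h (SPRED2) and limma-voom 5, and both called 0 lower, while 1 member was lower at an unadjusted p under 0.05 in edgeR. DESeq2 gave no adjusted p for DUSP6 and SPRY4 in either comparison with caged cells. SPRY4 stood over the low-count filter of 0.659 CPM in 2 libraries at 4 h, 1 at 8 h and 0 of the caged ones, and 4 of the other 9 members rose. At 8 h, 4 members rose (DUSP1, SPRED1, SPRED2 and SPRY1) and 1 fell (SPRY2), where 28.1% of all tested features passed, 14.9% higher and 13.2% lower. DESeq2 called 3 members higher at 8 h (DUSP1, SPRED2 and SPRY1) and 0 lower, and limma-voom 4 higher and 1 lower. Between the times, SPRY1 was higher at 8 h than at 4 h and 0 members were lower, where 3.27% of features passed, 2.05% higher and 1.21% lower. In that step 1 member (SPRY2) was lower at an unadjusted p under 0.05 in edgeR, and DESeq2 and limma-voom called 0 members in either direction. DESeq2 gave an adjusted p there for DUSP1, SPRED1, SPRED2 and SPRY1 alone, so its lack of calls says nothing of SPRY2 or the remaining members. The median log2 change of the 10 members was 0.42 at 4 h and 0.38 at 8 h over caged cells, and -0.13 at 8 h over 4 h. Over all tested features these medians lay between -0.0061 and -0.0034. As the members were chosen with earlier results of these data known, their counts and medians are a description. Both comparisons with caged cells share the caged libraries, so their values are given side by side.

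**Figure D1:**
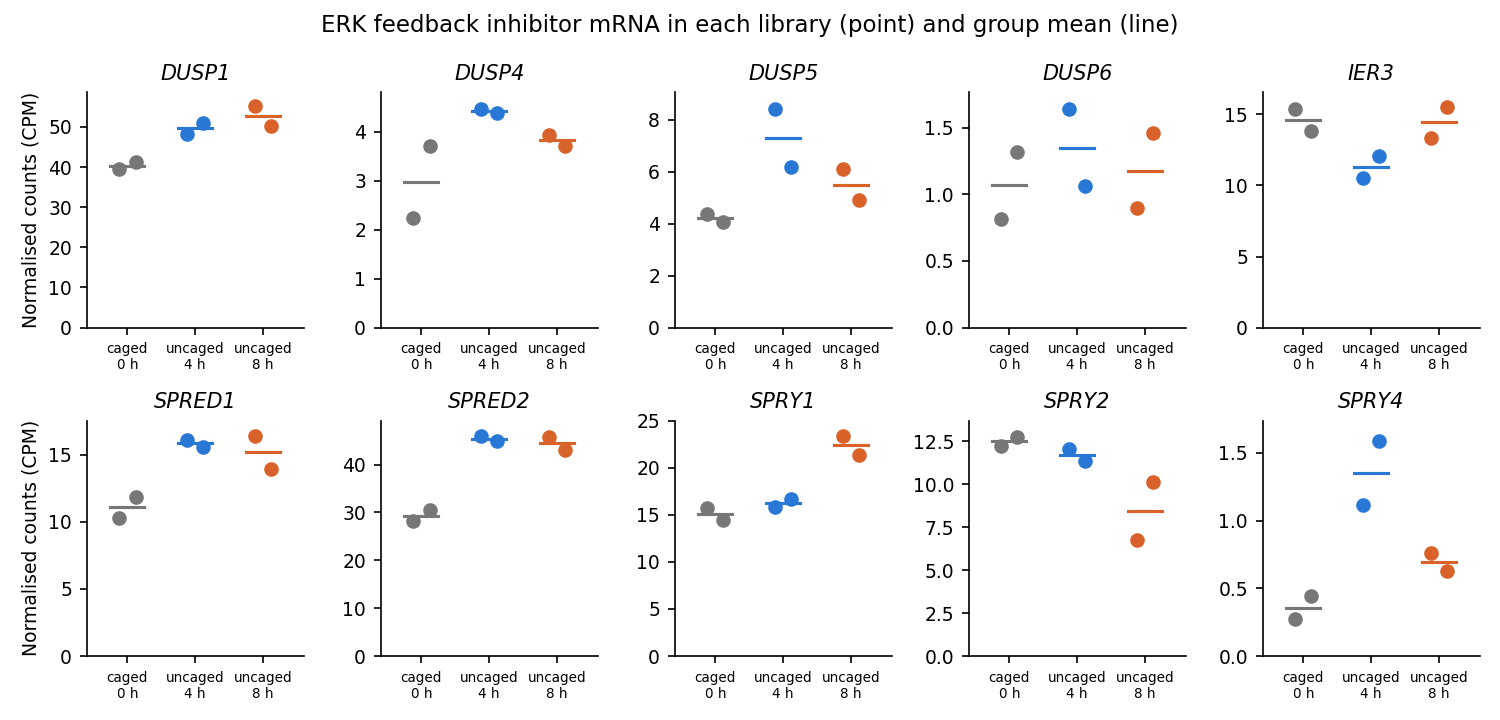
Normalised counts (CPM, vertical axis, from 0) of each of the 10 genes in each library (points) with the mean of the group (line), for caged 0 h, uncaged 4 h and uncaged 8 h. SPRED2 stood at 43.1 CPM or more in every library after light, against 28.2 and 30.5 CPM in caged cells, and SPRY1 at 23.4 and 21.3 CPM at 8 h, against 15.8 and 16.6 CPM at 4 h.

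Among the phosphatases, DUSP1 and DUSP5 passed the test and DUSP4 and DUSP6 did not. DUSP1, an immediate-early phosphatase of the nucleus that acts on ERK, p38 and JNK, lies on chromosome 5 (172768090 to 172771195 of GRCh38, minus strand, GENCODE 29). It stood at 39.4 and 41.1 CPM in caged cells, 48.3 and 51.1 CPM at 4 h and 55.1 and 50.1 CPM at 8 h. Every library after light was above both caged libraries, and the 4 h and 8 h libraries overlapped. The change over caged cells was 0.30 ± 0.076 at 4 h (1.23-fold, edgeR adjusted p = 0.0422) and 0.39 ± 0.076 at 8 h (1.31-fold, adjusted p = 0.00777), and 0.08 ± 0.075 from 4 h to 8 h (adjusted p = 0.555). The 4 h rise lost its call when any of the 4 compared libraries was left out, with edgeR adjusted p = 0.110 without uncaged 4 h replicate 1, 0.240 without 4 h replicate 2, 0.180 without caged replicate 1 and 0.133 without caged replicate 2. DESeq2 did not call it either (adjusted p = 0.0803). At 8 h the call was lost without caged replicate 1 (adjusted p = 0.0577) and held without each of the other 5 libraries.

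DUSP5, an inducible nuclear phosphatase with specificity for ERK, lies on chromosome 10 (110497838 to 110511544, plus strand). Its libraries held 4.37 and 4.05 CPM before light, 8.42 and 6.16 CPM at 4 h and 6.09 and 4.90 CPM at 8 h. Both 4 h libraries lay above every other library, the first of them well above the second. The rise at 4 h was 0.79 ± 0.20 (1.73-fold, edgeR adjusted p = 0.0437), while the 8 h value of 0.38 ± 0.21 (adjusted p = 0.197) and the step from 4 h to 8 h of -0.41 ± 0.20 (adjusted p = 0.266) did not pass. Without uncaged 4 h replicate 1 or 2 the rise was 0.55 and 0.99 (edgeR adjusted p = 0.220 and 0.0771), and without caged replicate 1 or 2 it was 0.85 and 0.74 (adjusted p = 0.130 and 0.184). In DESeq2 the 4 h rise of DUSP5 did not pass (adjusted p = 0.118).

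DUSP4, a nuclear phosphatase of ERK (chromosome 8, 29333064 to 29350668, minus strand), had 2.24 and 3.71 CPM in caged cells, 4.47 and 4.37 CPM at 4 h and 3.94 and 3.71 CPM at 8 h. The caged libraries differed from each other by more than the group means did, and the second lay level with the lower 8 h library. Its values of 0.57 ± 0.25 at 4 h (edgeR adjusted p = 0.187) and 0.36 ± 0.25 at 8 h (adjusted p = 0.320) did not pass. DUSP6, the ERK-specific phosphatase of the cytoplasm and a widely used readout of ERK activity (chromosome 12, 89347232 to 89353271, minus strand), was scarce. Its libraries held 0.819 and 1.32 CPM in caged cells, 1.64 and 1.06 CPM at 4 h and 0.895 and 1.46 CPM at 8 h, and all 3 groups overlapped. The log2 changes of DUSP6 were 0.33 ± 0.43 and 0.14 ± 0.44 over caged cells (edgeR adjusted p = 0.671 and 0.838). Reads of DUSP6 were shared with another feature, as its estimates were not whole numbers in 3 libraries.

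IER3 was the member whose 4 h value was lowest relative to caged cells, without passing the test. This short gene, 1356 bases on chromosome 6 (30743199 to 30744554, minus strand), had 15.4 and 13.9 CPM in caged cells, 10.5 and 12.1 CPM at 4 h and 13.4 and 15.5 CPM at 8 h. Both 4 h libraries were below all others, and the 8 h libraries spanned the caged ones. The values were -0.37 ± 0.13 at 4 h (edgeR adjusted p = 0.104), -0.02 ± 0.12 at 8 h (adjusted p = 0.924) and 0.35 ± 0.13 from 4 h to 8 h (adjusted p = 0.151). Its estimates were not whole in 5 libraries, and the antisense gene IER3-AS1 overlaps it at 0 to 0.926 CPM. Annotated antisense genes also overlap DUSP1, DUSP6 and SPRY4, each at 0.217 CPM or less, and the sources used here do not give the strand setting of the counting.

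Both SPRED genes rose at 4 h and were still higher at 8 h. SPRED2 spans 121787 bases of chromosome 2 (65310851 to 65432637, minus strand), and its protein binds RAS and RAF and keeps RAF from being activated. It had 28.2 and 30.5 CPM in caged cells, 45.96 and 44.9 CPM at 4 h and 45.8 and 43.1 CPM at 8 h. Every library after light lay well above both caged libraries, and the 4 h and 8 h libraries overlapped. SPRED2 rose by 0.63 ± 0.075 at 4 h (1.55-fold, edgeR adjusted p = 0.00366) and 0.60 ± 0.075 at 8 h (1.52-fold, adjusted p = 0.00148), with -0.03 ± 0.073 between the times (adjusted p = 0.846). Both rises passed in all 19 alternatives tried, with a highest adjusted p of 0.0371 at 4 h and 0.0157 at 8 h.

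SPRED1, whose protein recruits neurofibromin to the membrane, lies on chromosome 15 (38252326 to 38357249, plus strand). The libraries held 10.3 and 11.9 CPM before light, 16.1 and 15.6 CPM at 4 h and 16.4 and 13.9 CPM at 8 h. Again each library after light stood above the caged pair, and the 8 h libraries enclosed those of 4 h. The rise was 0.51 ± 0.12 at 4 h (1.43-fold, edgeR adjusted p = 0.0371) and 0.45 ± 0.12 at 8 h (1.37-fold, adjusted p = 0.0274), and the step between them was -0.06 ± 0.12 (adjusted p = 0.817). At 4 h the call was lost without uncaged 4 h replicate 1 or 2 (edgeR adjusted p = 0.143 and 0.148) and without caged replicate 1 or 2 (adjusted p = 0.177 and 0.0857). At 8 h it was lost without 8 h replicate 1 (adjusted p = 0.145) or caged replicate 1 (adjusted p = 0.158). DESeq2 called neither, with adjusted p = 0.101 at 4 h and 0.0852 at 8 h, and estimates were not whole numbers in 5 libraries.

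**Figure D2:**
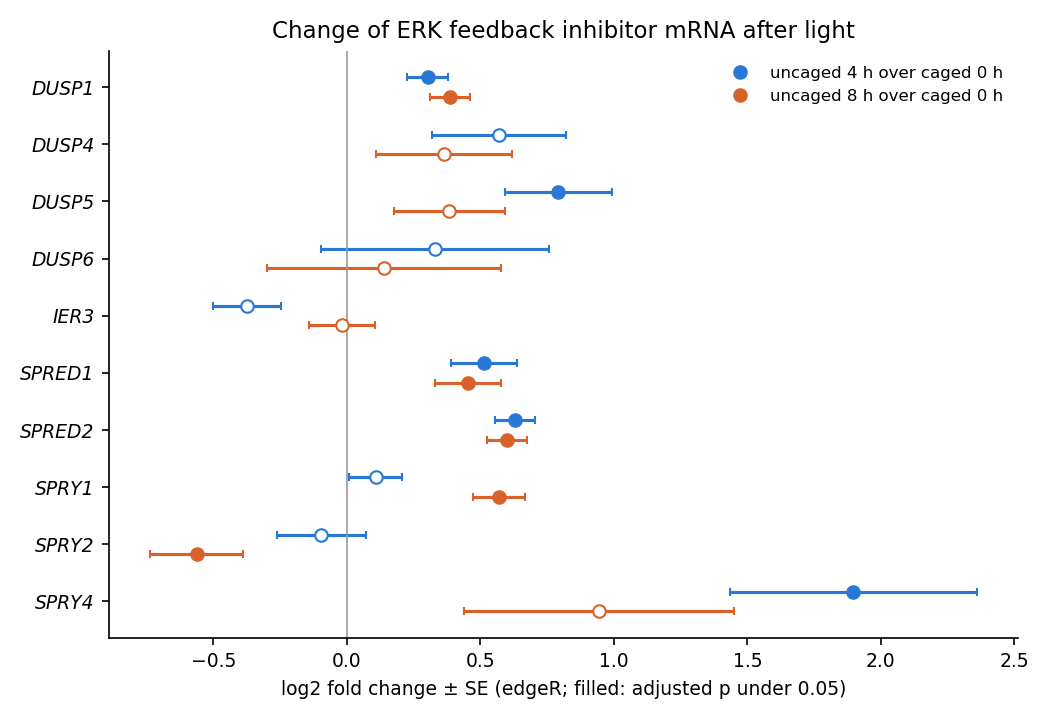
Log2 fold change over caged 0 h ± SE (horizontal axis, edgeR, 2 libraries a group) of each of the 10 genes at uncaged 4 h (blue, upper) and uncaged 8 h (orange, lower), with filled points where the adjusted p was under 0.05. The SPRED2 values of 0.63 and 0.60 have short error bars, SPRY1 stands at 0.57 and SPRY2 at -0.56 at 8 h, and SPRY4 has the widest bars.

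Of the 3 Sprouty members, SPRY4 passed the test at 4 h, SPRY1 was called higher and SPRY2 lower at 8 h. SPRY3, a Sprouty gene outside the set, did not pass. Over caged cells it stood at 0.18 ± 0.27 at 4 h (edgeR adjusted p = 0.720) and -0.40 ± 0.28 at 8 h (adjusted p = 0.325). SPRY1, which restrains receptor tyrosine kinase signalling during kidney branching in mice, lies on chromosome 4 (123396795 to 123403760, plus strand). It stood at 15.7 and 14.4 CPM in caged cells, 15.8 and 16.6 CPM at 4 h and 23.4 and 21.3 CPM at 8 h. Both 8 h libraries were above the other 4, and the 4 h libraries lay just above the caged ones. SPRY1 rose at 8 h by 0.57 ± 0.097 (1.48-fold, edgeR adjusted p = 0.00462), after 0.11 ± 0.10 at 4 h (adjusted p = 0.541). The 8 h rise passed in all 19 alternatives, with adjusted p from 0.00996 to 0.0351 over the 6 fits that each left out 1 library. The step from 4 h to 8 h was 0.46 ± 0.098 (1.38-fold, adjusted p = 0.0462) and passed in 6 of 19 alternatives. It was lost without each library in turn, with edgeR adjusted p = 0.139 and 0.123 without 8 h replicate 1 or 2, 0.201 and 0.163 without 4 h replicate 1 or 2, and 0.0702 and 0.0687 without caged replicate 1 or 2.

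SPRY2, which binds GRB2 and the ubiquitin ligase CBL, lies on chromosome 13 (80335976 to 80340951, minus strand) and was the single member called lower. Its values were 12.2 and 12.8 CPM before light, 12.03 and 11.3 CPM at 4 h and 6.78 and 10.1 CPM at 8 h. Both 8 h libraries were below the other 4, but they differed widely from each other. The change at 8 h was -0.56 ± 0.17 (0.677-fold, edgeR adjusted p = 0.0427), against -0.10 ± 0.17 at 4 h (adjusted p = 0.757), and the step of -0.47 ± 0.18 (adjusted p = 0.166) did not pass. Without 8 h replicate 1 the value was -0.30 (adjusted p = 0.163) and without 8 h replicate 2 it was -0.89 (adjusted p = 0.0102). The call was also lost without caged replicate 1 or 2 (edgeR adjusted p = 0.119 and 0.143) and without 4 h replicate 1 or 2 (adjusted p = 0.0620 and 0.0628), and it passed in 8 of 19 alternatives. Neither DESeq2 nor the fit with a replicate block called it (adjusted p = 0.0961 and 0.0537).

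SPRY4, an inhibitor of RAF activation, lies on chromosome 5 (142310427 to 142326455, minus strand) and was the scarcest member. It had 5 and 8 estimated counts in caged cells, 17 and 24 at 4 h and 11 and 9 at 8 h, which is 0.273 and 0.444 CPM, 1.12 and 1.59 CPM, and 0.761 and 0.630 CPM. The groups did not overlap, and the 4 h libraries were highest. The fitted rise at 4 h was 1.90 ± 0.46 (edgeR adjusted p = 0.0393), while 0.94 ± 0.50 at 8 h (adjusted p = 0.195) and -0.95 ± 0.44 from 4 h to 8 h (adjusted p = 0.236) did not pass. Since SPRY4 stood over the filter in 2 libraries at 4 h and 1 at 8 h but in 0 caged ones, its 4 h call had to favour the 4 h group. It was lost without any 1 library, with adjusted p = 0.103 and 0.244 without 4 h replicate 1 or 2, 0.193 and 0.124 without caged replicate 1 or 2, and 0.0619 and 0.0604 without 8 h replicate 1 or 2.

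**Figure D3:**
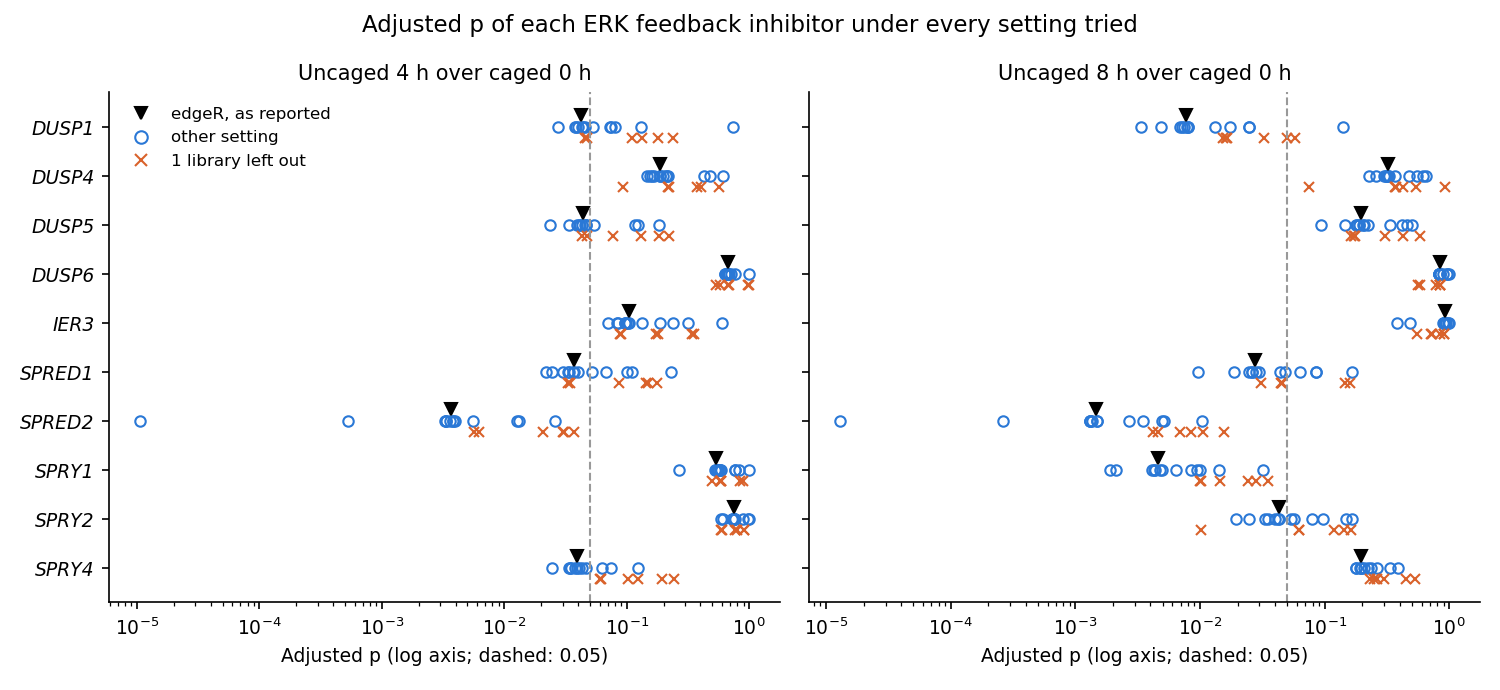
Adjusted p (log axis) of each of the 10 genes in the comparison of uncaged 4 h (left) and uncaged 8 h (right) with caged 0 h, as reported (black), under the other settings (blue circles) and in fits without 1 library (orange crosses); the dashed line is at 0.05. SPRED2 stayed left of the line at both times and SPRY1 at 8 h in all 19 alternatives, while the 4 h values of DUSP1, DUSP5, SPRED1 and SPRY4 lay on both sides.

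Levels were compared between members as CPM per kilobase of exon. In caged cells the order was DUSP1 (19.9), IER3 (10.8), SPRED2 (5.69), SPRY2 (4.11), SPRY1 (3.80), DUSP5 (1.61), SPRED1 (1.34), DUSP4 (0.410), DUSP6 (0.231) and SPRY4 (0.0546), and the libraries of neighbours did not overlap. At 4 h SPRED2 (8.81) stood next to IER3 (8.33) with overlapping libraries, and DUSP6 (0.292) next to SPRY4 (0.206), again with overlap. At 8 h SPRY1 (5.64) stood above SPRY2 (2.79) without overlap, whereas SPRY2 overlapped DUSP5 (2.10) and DUSP5 overlapped SPRED1 (1.84). DUSP1 was the most abundant member per kilobase in all 3 groups, and SPRY4 the least.

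The other genes of the pathway were read from 6 lists, again with changes given as log2 fold changes over caged cells. These lists, like the members, were chosen with earlier results of these data known. Their counts are read against the shares of all features given with the members. Called genes named from them were picked by smallest p, so libraries without overlap are a description and add no support. Of 16 tested growth factor receptors, 1 rose and 0 fell at 4 h, and 1 rose and 6 fell at 8 h (EGFR, FGFR2, IGF1R, INSR, KIT and MET). At 4 h, 4 receptors were lower at an unadjusted p under 0.05 in edgeR, and DESeq2 and limma-voom called 0 lower. At 8 h DESeq2 called 1 higher and 5 lower, and limma-voom 1 higher and 6 lower. PDGFRB, a receptor of platelet-derived growth factor, had 3.44 and 3.27 CPM in caged cells, 7.63 and 8.75 CPM at 4 h and 13.6 and 11.3 CPM at 8 h. Its libraries did not overlap between the groups, and it rose by 1.28 ± 0.16 at 4 h (edgeR adjusted p = 0.00443). At 8 h PDGFRB rose by 1.89 ± 0.16 (adjusted p = 0.000352). EGFR had 10.2 and 9.66 CPM at 8 h, against 16.2 and 14.1 CPM in caged cells (-0.61 ± 0.12, adjusted p = 0.00689), a call that was lost without caged replicate 1 (adjusted p = 0.0516). The insulin receptor gene INSR stood at -0.52 ± 0.075 at 8 h (adjusted p = 0.00256) and passed in all 19 alternatives. The median over the 16 receptors was -0.11 at 4 h and -0.26 at 8 h.

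Among 13 tested ligand genes, 1 rose at 4 h and 0 fell, and 1 rose and 2 fell at 8 h. No ligand was called at 4 h by DESeq2 or limma-voom, and at an unadjusted p under 0.05 edgeR had 1 lower. At 8 h DESeq2 called 1 higher and 1 lower, and limma-voom 1 higher and 2 lower. BTC, which encodes the EGFR ligand betacellulin, had 1.31 and 1.66 CPM in caged cells, 2.96 and 2.65 CPM at 4 h and 5.74 and 5.32 CPM at 8 h. Its groups did not overlap, and the rise was 1.89 ± 0.22 at 8 h (edgeR adjusted p = 0.00118, called in all 19 alternatives). The 4 h value of BTC, 0.91 ± 0.23 (edgeR adjusted p = 0.0458), passed in 4 of 19 alternatives and in 0 of the 6 fits without 1 library (adjusted p = 0.0694 to 0.178). FGF19 held 1 and 2 estimated counts at 8 h, against 12 and 14 in caged cells, and passed the low-count filter only through the caged libraries.

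Of 22 adaptors and RAS regulators 0 were called at 4 h, where edgeR had 3 higher and 1 lower at an unadjusted p under 0.05 and DESeq2 and limma-voom called 0. At 8 h 3 rose and 7 fell in edgeR, against 3 higher and 3 lower in DESeq2 and 3 higher and 8 lower in limma-voom. Among the genes that fell was RRAS, a RAS-related GTPase gene, with 5.88 and 4.62 CPM at 8 h, against 9.17 and 10.2 CPM in caged cells. RRAS fell by 0.88 ± 0.16 on the log2 scale (edgeR adjusted p = 0.00512), without overlap, in all 19 alternatives. HRAS had 153 and 151 CPM at 8 h, against 122 and 128 CPM in caged cells, without overlap. The HRAS value of 0.28 ± 0.054 (edgeR adjusted p = 0.00683) passed in 16 of 19 alternatives and lost its call without caged replicate 1 (adjusted p = 0.0514).

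In the kinase core of 18 genes, BRAF rose at both times, the ERK1 gene was lower at 8 h, and the MEK genes did not pass the test. MAP2K1 stood at 0.03 ± 0.065 and -0.05 ± 0.066 and MAP2K2 at -0.01 ± 0.068 and 0.01 ± 0.068, none past the test. MAPK3, which encodes ERK1, was lower at 8 h by -0.23 ± 0.054 (edgeR adjusted p = 0.0142), a call lost without caged replicate 1 or 8 h replicate 1 or 2 (adjusted p up to 0.0728). BRAF had 101 and 99.2 CPM in caged cells, 125 and 123 CPM at 4 h and 135 and 132 CPM at 8 h. BRAF rose by 0.31 ± 0.054 at 4 h (edgeR adjusted p = 0.0119) and 0.42 ± 0.053 at 8 h (adjusted p = 0.00158). Its 4 h call was lost without either caged or either 4 h library (adjusted p up to 0.0948), and the 8 h call held without each library. BRAF estimates were not whole numbers in any library. In all, 3 core genes rose and 0 fell at 4 h, with 1 lower at an unadjusted p under 0.05 in edgeR and 0 lower by DESeq2 and limma-voom, and 4 rose and 2 fell at 8 h. LAMTOR3, a scaffold of MEK and ERK, rose by 0.57 ± 0.091 at 8 h (edgeR adjusted p = 0.00358), and RPS6KA2, an ERK-activated kinase gene, fell by 0.50 ± 0.090 on the log2 scale (adjusted p = 0.00558), both in all 19 alternatives.

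A further list held other MAP kinase phosphatases, some of which act on JNK or p38, and other inhibitors of the ERK pathway. Of its 19 tested genes, 3 rose and 1 fell at 4 h, and 4 rose and 4 fell at 8 h. DESeq2 called 3 higher and 0 lower at 4 h and 4 higher and 3 lower at 8 h. The limma-voom numbers equalled those of edgeR. DUSP16, a phosphatase of JNK and p38, had 115 and 129 CPM in caged cells, 174 and 184 CPM at 4 h and 198 and 202 CPM at 8 h. It rose by 0.55 ± 0.067 at 4 h (edgeR adjusted p = 0.00395) and 0.71 ± 0.067 at 8 h (adjusted p = 0.000503), without overlap and in all 19 alternatives. DUSP8, with the same substrates, rose by 0.49 ± 0.074 at both times (adjusted p = 0.00807 and 0.00295), and its 4 h call was lost without caged replicate 2 or 4 h replicate 2 (adjusted p up to 0.0796). IL17RD, a membrane inhibitor of FGF signalling, had 14.9 and 14.0 CPM in caged cells, 9.11 and 10.3 CPM at 4 h and 5.16 and 5.68 CPM at 8 h. It fell by 0.58 ± 0.12 at 4 h (adjusted p = 0.0236) on the log2 scale, and the fall at 8 h was 1.42 ± 0.13 (adjusted p = 0.000458). The 4 h call was lost without either caged or either 4 h library (adjusted p up to 0.123). LRIG3, of a family of receptor-binding membrane proteins, stood at -0.68 ± 0.098 at 8 h (edgeR adjusted p = 0.00243), in all 19 alternatives. The medians of this list were 0.04 at 4 h and -0.05 at 8 h.

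**Figure D4:**
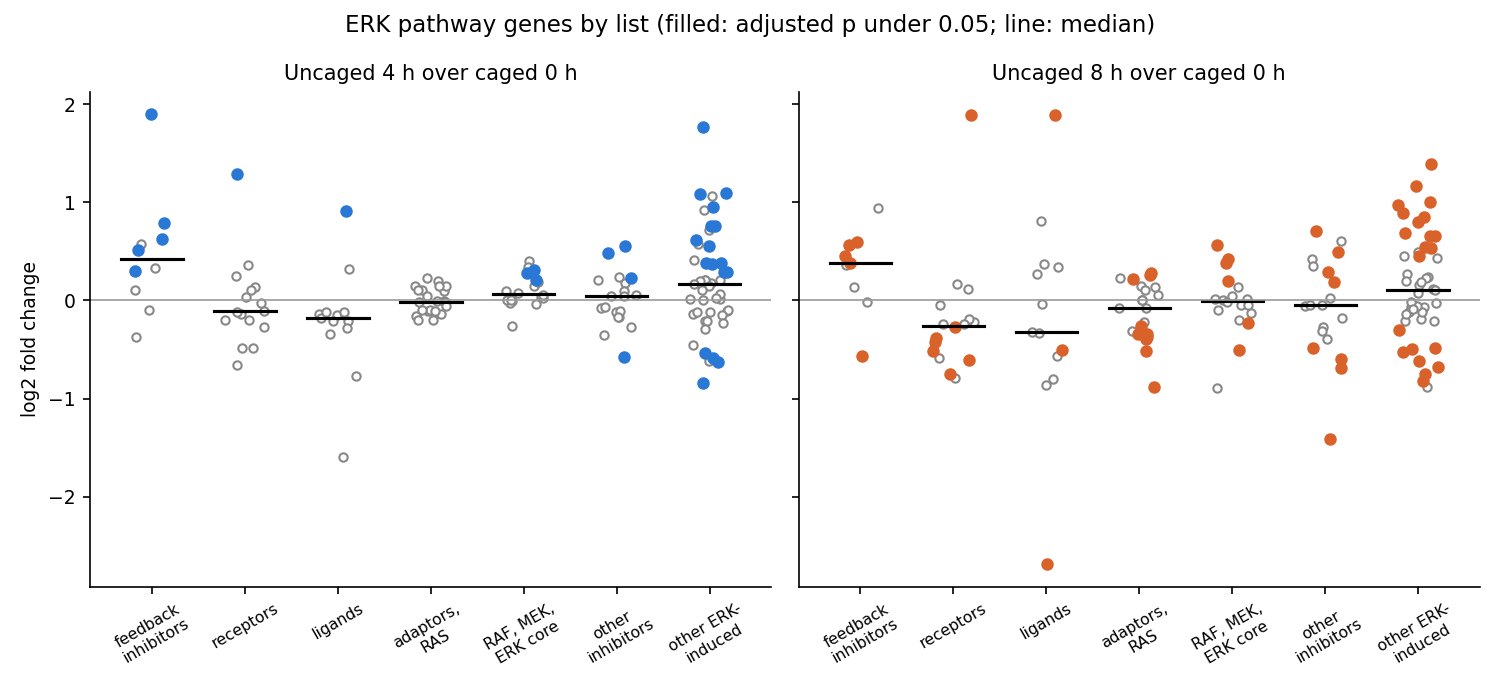
Log2 fold change over caged 0 h (vertical axis) of every tested gene of the 7 lists at uncaged 4 h (left) and uncaged 8 h (right), with filled points where the edgeR adjusted p was under 0.05 and a line at the median of the list. The feedback inhibitors have medians of 0.42 and 0.38, and the receptors -0.11 and -0.26.

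Of 47 tested genes known as ERK-induced outside the members, 13 rose and 4 fell at 4 h, and 13 rose and 8 fell at 8 h. DESeq2 called 14 higher and 4 lower at 4 h and 11 higher and 5 lower at 8 h. With limma-voom 14 were higher and 4 lower at 4 h, and 13 higher and 8 lower at 8 h. FOS, an immediate-early AP-1 gene, had 8.03 and 6.82 CPM in caged cells, 6.64 and 3.05 CPM at 4 h and 4.15 and 3.92 CPM at 8 h, and did not pass (-0.61 ± 0.30 and -0.88 ± 0.31, edgeR adjusted p = 0.231 and 0.0634). EGR1 stood at 0.01 ± 0.19 and -0.07 ± 0.19. ETV5, an ETS factor transcribed downstream of FGF and ERK, had 1.36 and 1.89 CPM in caged cells, 6.31 and 4.77 CPM at 4 h and 3.39 and 3.01 CPM at 8 h. Its groups did not overlap, and it rose by 1.77 ± 0.25 at 4 h (edgeR adjusted p = 0.00605, in all 19 alternatives) and by 0.97 ± 0.26 at 8 h (adjusted p = 0.0260, in 13). The 8 h call of ETV5 was lost without caged replicate 1 or 8 h replicate 1 or 2 (adjusted p up to 0.133). Its relative ETV4 stood at 0.92 ± 0.35 at 4 h (adjusted p = 0.131) and 0.46 ± 0.36 at 8 h (adjusted p = 0.375). The AP-1 gene FOSL1 had 17.6 and 16.96 CPM in caged cells, 24.2 and 26.8 CPM at 4 h and 38.5 and 39.3 CPM at 8 h, a rise over caged cells of 0.56 ± 0.085 and 1.17 ± 0.082 (edgeR adjusted p = 0.00795 and 0.000221). Its 4 h call was lost without caged replicate 2 or 4 h replicate 2 (adjusted p up to 0.0778). KLF6, a zinc finger factor gene, fell by 0.59 ± 0.069 at 4 h and by 0.82 ± 0.071 at 8 h on the log2 scale (edgeR adjusted p = 0.00366 and 0.000366). The medians over the 47 genes were 0.17 at 4 h and 0.11 at 8 h.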

How the data were processed

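Messenger RNA of 6 libraries was measured, 2 in each of 3 groups taken from the titles, treatment and time labels. The authors deposited one table of estimated counts without normalisation (expected counts) per gene, made with Salmon 1.1.0 on GRCh38 per the submitters' processing notes, which also name DESeq2 and R 3.6.1. The sources used here give neither the transcript annotation nor the strand setting. Salmon divides reads that match several features, so an estimate not whole within 0.01 marks shared reads, as in 20.3% to 21.7% of gene features in each library.

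Estimates were rounded to whole numbers, 5 plasmid sequences left out, and features filtered with filterByExpr (minimum count 10, total 15), scaled by TMM and fitted over all 6 libraries with edgeR 4.0.16 (R 4.3.3, quasi-likelihood, legacy=TRUE, no covariates). The SE is the size of the change divided by the square root of F. The fit had 3 residual and 5.43 prior degrees of freedom and a common biological coefficient of variation of 6.34%. A count of 0 allows up to 3 counts, 0.170 to 0.201 CPM, counting error only. Replicates of a group differed beyond sampling noise, with a chi-square of 3.44 to 4.00 per degree of freedom, so none was counted as a copy. The procedure was run on simulated data, with an outcome not given here. Changes were simulated only above a floor of mean count that SPRY4 does not reach, so genes as scarce were not covered.

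The members and lists were chosen with earlier results of these data known. All 10 members are named; from each other list at most 4 called genes per comparison by smallest p, with MAPK3, MAP2K1, MAP2K2, FOS, EGR1, ETV4 and ETV5. The text gives a part of those, chosen after their values were seen, and some pathway genes are not reported here. Coordinates are from GENCODE 29 (GRCh38), matched by gene ID for 58083 of 60179 features. Alternatives were other scalings (RLE, library totals, cyclic loess), filters (none, or 1 CPM in 2 libraries) and tests (DESeq2 1.42.0, limma-voom of limma 3.58.1, glmTreat against a 1.2-fold change), a replicate block, legacy=FALSE, the 4 compared libraries alone, plasmid sequences included, robust=TRUE, and each library left out in turn. Where that left a group with 1 library, its spread was taken to equal that of the other groups.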

Additional observations from a re-analysis of the deposited data

Results flagged for a closer look

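Some of the named genes differed between 8 h and 4 h in their change over caged cells, by edgeR's test of the 8 h group over the 4 h group, in which the shared caged libraries cancel. Genes other than the 10 members were named partly because they were called in this comparison, so their number says nothing of the pathway; over all features 3.27% were called. Values are log2 differences of the 8 h change minus the 4 h change. SPRY1 is the single member among them, at 0.46 (edgeR adjusted p = 0.0462). BTC stood at 0.98 (adjusted p = 0.0481), with 5.74 and 5.32 CPM at 8 h, against 2.96 and 2.65 CPM at 4 h. GAB2, a docking protein gene, stood at -0.54 (adjusted p = 0.0305), with 15.4 and 15.3 CPM at 8 h, against 23.5 and 21.2 CPM at 4 h. RPS6KA2 stood at -0.57 (adjusted p = 0.0257), with 17.6 and 19.0 CPM at 8 h, against 25.8 and 28.7 CPM at 4 h. IL17RD stood at -0.84 (adjusted p = 0.0267) and LRIG3 at -0.58 (adjusted p = 0.0304). FOSL1 stood at 0.61 (adjusted p = 0.0188). MYC stood at -0.44 (adjusted p = 0.0417), with 45.0 and 42.6 CPM at 8 h, against 63.8 and 55.0 CPM at 4 h. ATF3, a stress-induced transcription factor gene, stood at 0.27 (adjusted p = 0.0426). In the 6 fits that each left out 1 library, SPRY1, BTC, GAB2 and MYC passed in 0, LRIG3 in 1, RPS6KA2, IL17RD and ATF3 in 2 and FOSL1 in 3. The highest adjusted p over those fits lay between 0.135 (RPS6KA2) and 0.202 (BTC).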

How the results depend on the processing

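Depth was lowest for DUSP6 and SPRY4, with at most 25 estimated counts a library. Every called change of a member kept its direction in all alternatives. Of the results for single genes, 2109 kept their side of the threshold, 247 lost and 22 gained a call, and 45 uncalled ones changed sign. Where a member could not be fitted or had no adjusted p, no value was counted.

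Features called numbered 1696 at 4 h, 4908 at 8 h and 570 between the times. Without a filter they numbered 711 at 4 h and 53 between the times, and with glmTreat 217, 1407 and 9. With robust=TRUE 1051 passed between the times. With 1 library left out they ranged from 226 to 1615 at 4 h, 2275 to 4315 at 8 h and 6 to 274 between the times, where fewer samples entered each fit. Of the calls, 63.3%, 53.0% and 62.8% were higher, against 44.7%, 29.03% and 35.4% with library totals, which moved the median of all features at 8 h to -0.11. DESeq2 gave 76.0%, 63.5% and 76.7%.

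Members called numbered 5, 5 and 1. At 4 h, 2 passed with library totals (SPRED2 and SPRY4) and 1 (SPRED2) without a filter, with DESeq2 or with glmTreat. At 8 h, 3 passed without a filter or with DESeq2 (DUSP1, SPRED2 and SPRY1) and 2 with glmTreat. Between the times 0 passed with library totals, no filter, DESeq2, limma-voom, glmTreat or only the 4 compared libraries. DESeq2 gave an adjusted p in that step for DUSP1, SPRED1, SPRED2 and SPRY1 alone, and over caged cells none for DUSP6 and SPRY4. Leaving out 1 library gave 1 to 4 members at 4 h, 2 to 5 at 8 h and 0 between the times. The cause of these losses was not tested.

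Libraries of the same replicate number did not deviate together (r = -0.050 to 0.047 over features), so the number is not taken as a pairing. With a replicate block, 1039 features passed at 4 h, 4407 at 8 h and 193 between the times. Members called were then 2 at 4 h (DUSP5 and SPRED2), 4 at 8 h, where SPRY2 lost its call (adjusted p = 0.0537), and 0 between the times.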

Other observations

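For each member called in some comparison, the genes with the most similar profile were sought among 9960 tested protein-coding features of at least 10 CPM on average. Likeness is the Euclidean distance of the 6 centred log2 CPM values, where 0 would be the same profile, and it is given as a description over 6 libraries. Nearest to SPRED2 were TWNK, which encodes the mitochondrial DNA helicase (0.125), and the nuclear receptor gene NR2C2 (0.146). TWNK stood at 0.62 at 4 h and 0.69 at 8 h over caged cells (log2, edgeR adjusted p = 0.00243 and 0.000503). Nearest to SPRY1 were ZNF8 (0.0802) and MDM4, a negative regulator of p53 (0.129). MDM4 stood at 0.14 at 4 h (edgeR adjusted p = 0.311) and 0.53 at 8 h (adjusted p = 0.00334). DUSP1 was nearest to SUGP1 (0.0606) and TEPSIN (0.0723), and SPRED1 to MAPKBP1 (0.163) and EXOSC6, an exosome subunit gene (0.174). SPRY2 was nearest to DEPDC7 (0.110) and ELMOD2 (0.208). The distances were larger for DUSP5, with the protease gene ADAMTS1 (0.281) and ZNF503 (0.327), and largest of these for SPRY4, with IRS4 (0.850) and MYC (0.865). Both members stood below the 10 CPM asked of the compared genes, DUSP5 at 4.05 to 8.42 CPM and SPRY4 at 0.273 to 1.59 CPM. Whether counting noise widened their distances was not tested.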
